A study of Mus musculus with 6 samples.

Results

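The cadherins and protocadherins were followed in N2a cells with and without knockdown of the circular RNA circRtn4. All protein-coding genes of the deposited table whose symbol starts with Cdh and a digit, or with Pcdh, were taken, which gave 92 genes of 22046 protein-coding genes and of 54532 genes in all. They fall into 14 alpha (Pcdha), 22 beta (Pcdhb) and 21 gamma (Pcdhg) protocadherins of the clusters on chromosome 18, and 35 genes outside the clusters. The latter are 5 type I and 13 type II classical cadherins, 5 other cadherins, 4 delta-1, 5 delta-2 and 3 other non-clustered protocadherins. The choice used symbols and biotype only, not levels. The symbol Pcdha11 stands on 2 identifiers, and both were kept. Pcdhgb8 is listed as a polymorphic pseudogene and was not taken.

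N2a (Neuro2A) is a mouse neuroblastoma line, a tumour cell of sympathetic origin that can be driven to extend neurites, and the labels give its strain as C57BL/6. RNA sequencing covered 3 libraries of cells transfected with si-NC, a control siRNA, and 3 of cells transfected with si-circRtn4, an siRNA against circRtn4. The labels name the growth medium, MEM with fetal bovine serum, for both groups. The study also describes a differentiation medium with retinoic acid, given to N2a cells after transfection, and the sources used here do not say whether the sequenced cells received it. The comparison asks which genes differ once circRtn4 is silenced. The labels do not say whether the libraries of a group came from separate cultures, so p-values measure the spread between these libraries, which may be technical.

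Cadherins are calcium-dependent adhesion proteins. Classical cadherins bind like cadherins on the neighbouring cell, and their tails bind beta-catenin and p120-catenin, which connect them through alpha-catenin to actin. Clustered protocadherins give neurons a surface identity: a neuron uses a few of many variable exons, each with its own promoter, and self-recognition between branches of the same cell shapes its arbor. In the alpha and gamma clusters each variable exon is spliced to constant exons shared by the whole cluster, whereas the beta genes have no constant exons.

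Reads assigned to genes numbered 13541198 to 15122063 per library. The deposited unit is FPKM, a count of fragments scaled to gene length and library size, so levels of different genes are compared per length. For alpha and gamma protocadherins this comparison with other genes is limited, because much of their length is shared within the cluster. Rtn4, the host gene of circRtn4, was listed at 61.0, 66.8 and 69.8 FPKM with si-NC and at 50.1, 56.7 and 62.7 FPKM with si-circRtn4. A gene-level value does not tell the circle from linear Rtn4 mRNA, so it does not check the knockdown. Of 12 neuroblast markers 11 reached a mean of 1 FPKM. Their summed level was 2523 to 2774 FPKM with si-NC and 1082 to 1545 FPKM with si-circRtn4, led by Chgb. No epithelial (of 7), fibroblast (of 7) or immune (of 6) marker reached 1 FPKM, and Epcam, Esrp1, Thy1, Lyz2 and Cd3e were listed at 0. The fibroblast sum was 0.301 to 0.503 FPKM against 0.509 to 0.786 FPKM, the epithelial sum 0.327 to 0.906 against 0.0986 to 0.493 FPKM and the immune sum 0.843 to 2.09 against 0.906 to 1.15 FPKM. Of 7 endothelial markers only Vwf reached 1 FPKM, Emcn was listed at 0, and their sum was 2.31 to 3.38 FPKM with si-NC and 1.20 to 1.73 FPKM with si-circRtn4. The neuroblast markers thus stood lower in the si-circRtn4 libraries, and their part in the differences of cadherin genes was not tested. In bulk RNA, fewer cells that express a gene and less RNA per cell cannot be told apart.

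A miRNA or siRNA strand can pair with 3′ UTRs through its seed, the bases at positions 2 to 8 from the 5′ end. The small RNAs of this experiment are shown because their sites were looked for in the 92 genes. The mature sequence of miR-24-3p, the miRNA that the study links to circRtn4, is from RefSeq. The si-circRtn4 strand is the one listed by the study, and the other strand is its reverse complement. Capitals mark the seed in miR-24-3p and in the other strand, and the site that this seed pairs with in the listed strand.
mmu-miR-24-3p: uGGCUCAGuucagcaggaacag
si-circRtn4, listed strand: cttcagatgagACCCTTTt
si-circRtn4, other strand: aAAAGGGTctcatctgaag

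The 7-base sites are CTGAGCC for the seed of miR-24-3p and ACCCTTT for that of the other strand of si-circRtn4. An example of each, in capitals and on the strand of the gene, is shown from the 3′ UTR of a gene outside the clusters: Cdh6, a type II cadherin, at chr15:13031402-13031408 on the minus strand, and Cdh23, a part of the tip link of hair cells, at chr10:60302862-60302868 on the minus strand (both GRCm38).
Cdh6, miR-24-3p site: gatgagtcCTGAGCCaacttgaa
Cdh23, si-circRtn4 site: tgtgtgtaACCCTTTtctaaatt
Neither gene reached a mean of 0.1 FPKM here. A match is a description of the sequence and not a measured binding site.

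The miR-24-3p site stood in the longest annotated 3′ UTR of 27 of the 92 genes (29.3%), against 16.3% of 20893 protein-coding genes. Of these 27, 21 are the gamma protocadherins, and they hold 1 and the same site, because their 3′ UTR lies in the shared last constant exon (chr18:37841111-37841117, GRCm38, plus strand). They count as 1 site rather than 21. The beta cluster held the site in 1 gene, Pcdhb19, and the alpha cluster in 0 of 14. Outside the clusters it stood in Cdh3, Cdh4, Cdh5, Cdh6 and Pcdh10. Of the 17 genes whose mean reached 1 FPKM, 2 held the site (11.8%, against 19.6% of 10682 protein-coding genes at that level), and both were gamma protocadherins. The si-circRtn4 site stood in 8 of the 92 genes (8.70%, against 11.0%), among them Pcdhb11 and Pcdhb16.

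Most of the family was low in N2a cells. Of the 92 genes, 17 were listed at 0 in all 6 libraries, 75 were above 0 in at least 1 library and 65 in all 6, 51 had a mean of at least 0.1 FPKM and 17 a mean of at least 1 FPKM. The zeros were 15 genes outside the clusters, among them Cdh7, Cdh8, Cdh11, Pcdh7, Pcdh9 and Pcdh10, and also Pcdhb1 and Pcdhga10. A listed 0 gives no read assigned to the gene, which need not mean that its RNA was absent. All bases of Pcdhga10 that are not shared on its strand overlap an antisense gene, Gm26672. Also listed at 0 were 3 ribosomal protein genes, which were not looked at singly. All 14 alpha genes were above 0 in at least 1 library.

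Pcdh1, a delta-1 protocadherin on chromosome 18 (ENSMUSG00000051375), stood far above the rest. It was at 72.1, 61.1 and 61.3 FPKM with si-NC and at 61.5, 57.3 and 61.4 FPKM with si-circRtn4, and held 62.2% to 68.7% of all reads on the 92 genes. The groups overlapped, and the log2 fold change of -0.10 (SE 0.09) did not pass the test (limma, adjusted p = 0.504). In each of the 6 libraries Pcdh1 was above Cdh24, the next by mean level. Below it, the ranges of neighbours in the order of levels overlapped in each of the 13 other pairs among the 15 highest genes. Within libraries, Cdh22 lay above Pcdhgb1, Pcdhgb1 above Pcdhb20 and Cdh2 above Pcdhb5 in 6 of 6. The order of the other 10 pairs was not the same in all 6 libraries. For Cdh24 and Pcdhac2 the order followed the groups. Cdh24 lay below Pcdhac2 in each si-NC library and above it in each si-circRtn4 library. So did Pcdhb5 beside Pcdhb11.

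**Figure D1:**
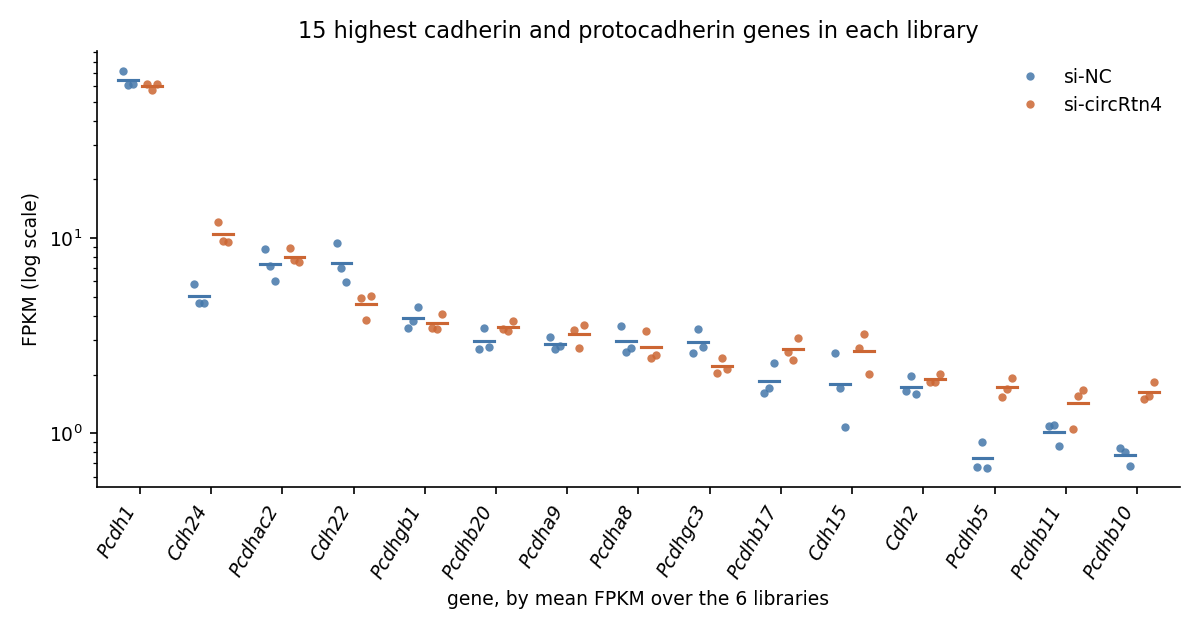
FPKM on a log scale of the 15 cadherin and protocadherin genes of highest mean, with a point for each of 3 si-NC and 3 si-circRtn4 libraries and a line for each group mean. Pcdh1 lies between 57.3 and 72.1 FPKM, and the groups stand apart for Cdh24, Cdh22, Pcdhgc3, Pcdhb17, Pcdhb5 and Pcdhb10.

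The test across all 12749 genes whose mean reached 1 FPKM was limma on log2(FPKM + 1), and a gene is said to have risen or fallen where its adjusted p was under 0.05. Of the 17 cadherin and protocadherin genes tested, 3 rose (Cdh24, Pcdhb5 and Pcdhb10), beside 4.36% of all genes tested. Pcdhb5 and Pcdhb10 entered this test through their si-circRtn4 libraries, since their si-NC means were 0.748 and 0.772 FPKM. The count of 3 is thus tied to the filter and is not a measure of excess over the share of all genes. None fell in limma, beside 4.82% of all genes, while 2 of the 17, Cdh22 and Pcdhgc3, were lower at an unadjusted p under 0.05, beside 12.8% of all genes. Libraries with the same replicate number deviated together, and with this number as a block 4 rose (9.29% of all genes) and 1 fell (9.75% of all genes). Fold changes from this fit are on the log2(FPKM + 1) scale, which understates the change of low genes. Since most beta genes lie under 1 FPKM, reads were also recovered from FPKM and gene length and tested by limma-voom in the 20064 genes whose mean reached 0.1 FPKM, an alternative chosen after the data were seen. Of the 51 genes so tested 7 rose, beside 4.46% of all genes, and 1 fell, beside 4.09%. With the block, 11 rose and 2 fell, beside 10.4% and 9.59% of all genes.

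Among the classical cadherins, Cdh24 rose and Cdh22 was lower. Cdh24, a type II classical cadherin (ENSMUSG00000059674, chromosome 14, 54631231 to 54641364, minus strand), was at 5.83, 4.67 and 4.65 FPKM with si-NC and at 12.1, 9.65 and 9.58 FPKM with si-circRtn4. All 3 si-circRtn4 libraries lay above all si-NC libraries. The means were 5.05 ± 0.675 and 10.4 ± 1.42 FPKM (SD, n = 3), a ratio of 2.07. The log2 fold change was 0.92 (SE 0.12, limma, adjusted p = 0.00553), and Cdh24 was called in 14 of 14 alternative settings. The two-sided exact permutation test of the means gave p = 0.1, the smallest that 3 libraries against 3 allow.

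Cdh22, a type II cadherin known from brain and pituitary (ENSMUSG00000053166, chromosome 2, 165111507 to 165234853, minus strand), was at 9.41, 7.01 and 5.94 FPKM with si-NC and at 4.94, 3.78 and 5.05 FPKM with si-circRtn4. The si-circRtn4 libraries all lay below the si-NC libraries, and the ratio of the means was 0.616. The log2 fold change of -0.58 (SE 0.16) did not pass (limma, adjusted p = 0.0658), but passed with the replicate block (limma, adjusted p = 0.0346) and in limma-voom on reads (adjusted p = 0.0227 with a mean of at least 0.1 FPKM). The limma-voom call was lost without any 1 of 5 libraries (adjusted p 0.0553 to 0.175) and kept without si-NC replicate 3 (0.0278). Cdh22 was above Cdh24 in each si-NC library and below it in each si-circRtn4 library.

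The other classical cadherins showed no difference that passed limma. Cdh15, the M-cadherin of muscle, was at 2.59, 1.71 and 1.08 FPKM with si-NC and at 2.72, 3.22 and 2.01 FPKM with si-circRtn4. These groups overlapped (log2 fold change 0.41, SE 0.22, limma, adjusted p = 0.285), and the gene passed only in limma-voom with the block (adjusted p = 0.0205). Cdh2, the N-cadherin of neural tissue, was at 1.65, 1.96 and 1.59 FPKM and at 1.84, 1.83 and 2.01 FPKM (log2 fold change 0.08, SE 0.11, limma, adjusted p = 0.699). Cdh1, the E-cadherin of epithelia, had 4 to 8 reads per library, and Cdh3, Cdh4, Cdh5 and Cdh6 at most 3. None of these 5 genes had the mean of 0.1 FPKM needed for the test. Of the 13 type II cadherins, 7 were listed at 0 in all libraries.

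Of the non-clustered protocadherins besides Pcdh1, Pcdh12 alone had a mean of at least 0.1 FPKM. It was at 0.175, 0.172 and 0.106 FPKM with si-NC and at 0.0697, 0.106 and 0.102 FPKM with si-circRtn4, from 6 to 16 reads (log2 fold change -0.66, SE 0.43, limma-voom, adjusted p = 0.428). Pcdh15, the partner of Cdh23 in the tip link, had 7 to 45 reads and Cdh23 had 8 to 22. The si-circRtn4 libraries lay above the si-NC libraries for Pcdh15 and below them for Cdh23. Both had a mean under 0.1 FPKM and were not tested.

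Among the beta protocadherins 6 genes rose and none fell. Of 22 beta genes 21 were above 0, all 21 with a mean of at least 0.1 FPKM, and 7 with a mean of at least 1 FPKM. In limma-voom 6 of the 21 rose (28.6%, beside 4.46% of all genes), and 0 fell, with 0 lower at an unadjusted p under 0.05 in limma-voom or limma. The log2 fold change was above 0 in 20 of 21, with a median of 0.54 and a range of -0.06 to 1.71, while the median of all genes tested was 0.0015. In 9 of the 21 the si-circRtn4 libraries all lay above the si-NC libraries, which was the case for 13.3% of all genes, and in 0 all lay below, which was the case for 12.7%. Over all 51 genes these numbers were 11 and 5. With the replicate block in limma-voom 9 of the 21 rose, beside 10.4% of all genes in that fit, adding Pcdhb2, Pcdhb6 and Pcdhb17.

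**Figure D2:**
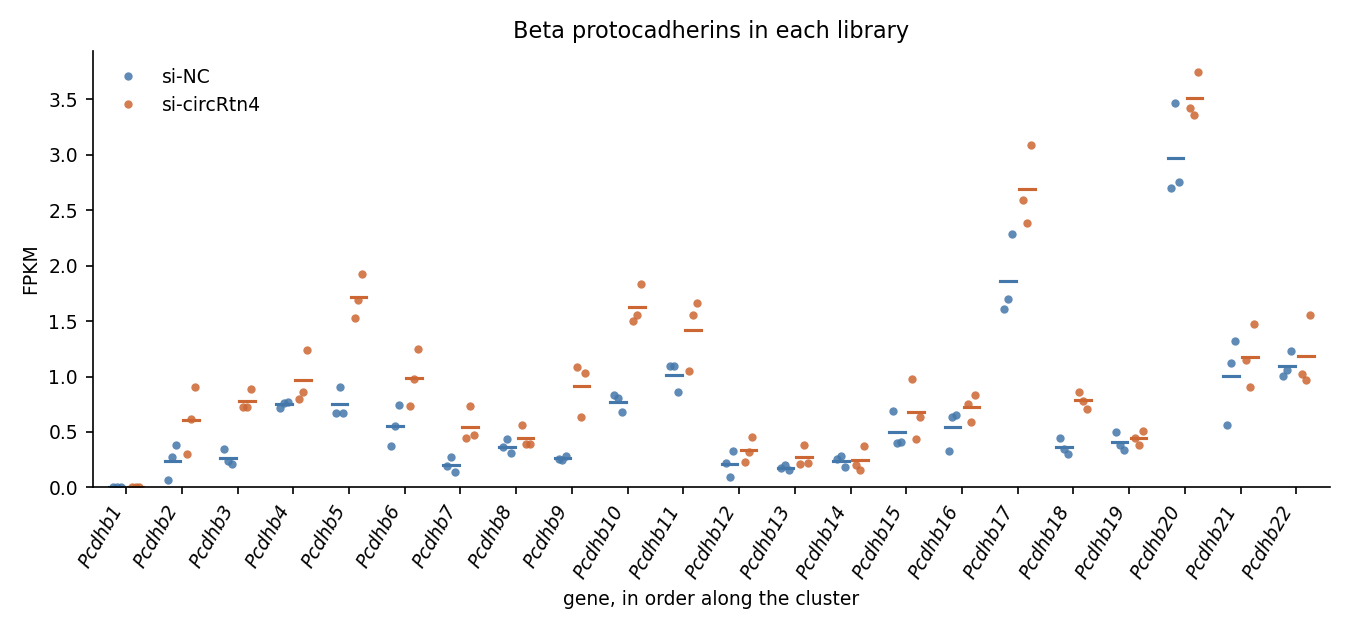
FPKM of the 22 beta protocadherins in their order along the cluster, with a point for each of 3 si-NC and 3 si-circRtn4 libraries and a line for each group mean. The si-circRtn4 points lie above all si-NC points in 9 genes, among them Pcdhb3, Pcdhb5, Pcdhb9, Pcdhb10 and Pcdhb18, while Pcdhb1 is listed at 0.

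Pcdhb5 (ENSMUSG00000063687, chromosome 18, 37320381 to 37323915, plus strand) was at 0.675, 0.902 and 0.667 FPKM with si-NC and at 1.53, 1.69 and 1.93 FPKM with si-circRtn4, from 33 to 99 reads. The groups did not overlap, and the means of 0.748 ± 0.134 and 1.72 ± 0.199 FPKM (SD, n = 3) gave a ratio of 2.29. The log2 fold change was 0.64 (SE 0.14, limma, adjusted p = 0.0298) on the log2(FPKM + 1) scale and 1.20 (SE 0.23, limma-voom, adjusted p = 0.00493) on reads. Without any 1 of the 6 libraries the limma call was lost (adjusted p 0.0646 to 0.0967), while the limma-voom call was kept in 6 of 6 (0.0171 to 0.0385).

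Pcdhb10 (ENSMUSG00000045657, chromosome 18, 37411664 to 37414514, plus strand) was at 0.837, 0.803 and 0.677 FPKM with si-NC and at 1.5, 1.55 and 1.83 FPKM with si-circRtn4. Again the groups did not overlap, with a ratio of the means of 2.11. The log2 fold change was 0.57 (SE 0.13, limma, adjusted p = 0.037), lost without any 1 of the 6 libraries (0.0667 to 0.111), and 1.07 (SE 0.24, limma-voom, adjusted p = 0.0131), lost without si-NC replicate 2 (0.0607) or 3 (0.0667). Both Pcdhb5 and Pcdhb10 reached the mean of 1 FPKM through the si-circRtn4 libraries, so their passing the filter is tied to the difference. No beta gene depended on a group in this way at the lower filter of 0.1 FPKM.

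The other 4 beta genes that rose in limma-voom were lower still. Pcdhb9 was at 0.260, 0.250 and 0.281 FPKM with si-NC and at 1.08, 0.631 and 1.04 FPKM with si-circRtn4, a ratio of 3.48 (log2 fold change 1.71, SE 0.37, limma-voom, adjusted p = 0.00892). Pcdhb3 was at 0.35, 0.238 and 0.208 FPKM against 0.724, 0.730 and 0.890 FPKM (1.55, SE 0.32, limma-voom, adjusted p = 0.00776). In both genes the groups stood apart, and both calls were lost without si-NC replicate 2 (0.0611 and 0.0564) or 3 (0.0510 and 0.0518). Pcdhb18 was at 0.447, 0.344 and 0.298 FPKM against 0.865, 0.777 and 0.710 FPKM (1.11, SE 0.27, limma-voom, adjusted p = 0.0178). Pcdhb7 was at 0.189, 0.277 and 0.143 FPKM against 0.442, 0.734 and 0.472 FPKM (1.42, SE 0.40, limma-voom, adjusted p = 0.0392), from 7 to 40 reads. Here too no si-circRtn4 library lay within the range of the controls. The call of Pcdhb18 was lost without si-NC replicate 2 or 3 or si-circRtn4 replicate 1 or 2 (0.0659 to 0.0868), and that of Pcdhb7 without any 1 library (0.0641 to 0.154).

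The 2 highest beta genes differed less. Pcdhb20 was at 2.70, 3.47 and 2.75 FPKM with si-NC and at 3.42, 3.36 and 3.75 FPKM with si-circRtn4, and the groups overlapped (log2 fold change 0.19, SE 0.11, limma, adjusted p = 0.324). Pcdhb17 was at 1.61, 1.70 and 2.28 FPKM against 2.59, 2.39 and 3.08 FPKM, and its groups did not overlap. Its log2 fold change of 0.37 (SE 0.13) did not pass (limma, adjusted p = 0.133) but passed with the block (limma, adjusted p = 0.0497). Pcdhb11, which holds a site of the si-circRtn4 seed, was at 1.09, 1.10 and 0.857 FPKM against 1.05, 1.56 and 1.67 FPKM (0.26, SE 0.15, limma, adjusted p = 0.339). Pcdhb22 (ratio of the means 1.08) and Pcdhb21 (1.17) lay just above the filter of 1 FPKM and Pcdhb4 (1.29) just below it, and Pcdhb14 was the beta gene with a log2 fold change under 0 (-0.06, SE 0.35).

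Summed over the 22 beta genes, the recovered reads, scaled to the same total in each library (RPM), were 58.6, 66.0 and 64.0 with si-NC and 88.5, 85.4 and 104.5 with si-circRtn4. All 3 si-circRtn4 libraries lay above the controls, and the means of 62.9 ± 3.82 and 92.8 ± 10.3 (SD, n = 3) gave a ratio of 1.48. Without Pcdhb20 and Pcdhb17 the ratio was 1.55. In the 15 beta genes above 0 that did not pass limma-voom, the sums were 48.6, 56.0 and 56.1 RPM against 65.8, 63.2 and 80.7, a ratio of 1.30. The ratio of the mean FPKM was above 1 in 21 of 21 beta genes as deposited. When a library was left out it was above 1 in 19 to 21 of 21, with the median log2 ratio from 0.42 to 0.66. After rescaling to TPM it was again above 1 in 21 of 21, but TPM could only raise this ratio. The summed FPKM was 344732 to 370231 in the si-circRtn4 libraries and 374443 to 384849 in the si-NC libraries.

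**Figure D3:**
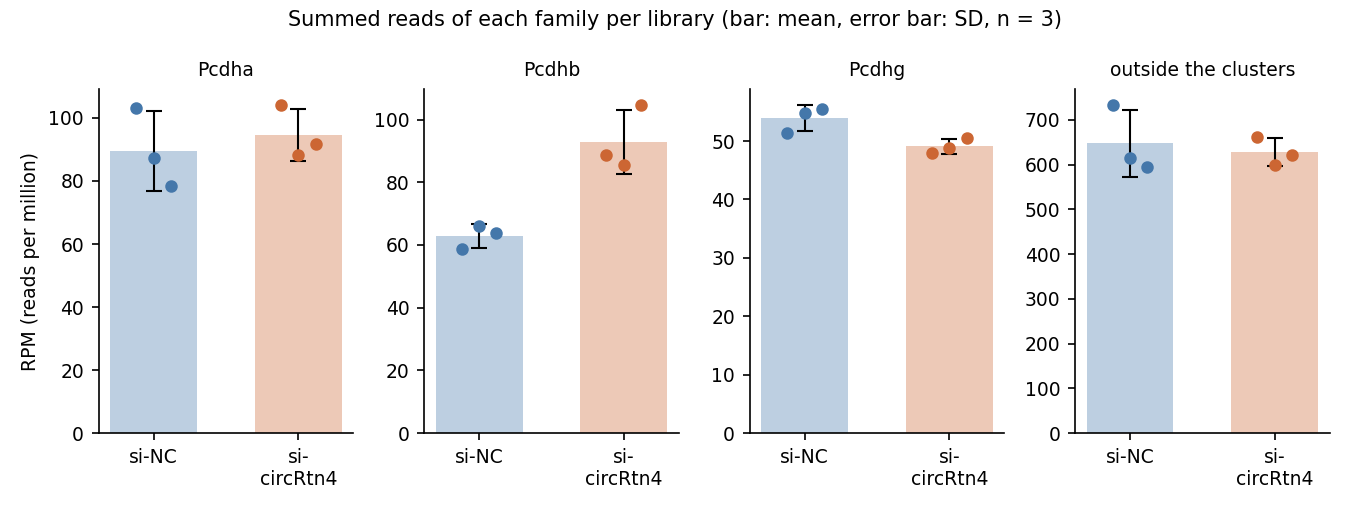
Summed reads (RPM) in each library (points), with the group mean as a bar and the SD as an error bar (n = 3), for the 3 clusters and the genes outside them. The beta cluster has 58.6 to 66.0 RPM with si-NC and 85.4 to 104.5 with si-circRtn4, while the groups overlap for the alpha cluster and outside the clusters.

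No alpha protocadherin passed a test. Pcdhac2, a C-type isoform at the end of the alpha cluster, was the highest, at 8.81, 7.16 and 6.00 FPKM with si-NC and at 8.88, 7.68 and 7.52 FPKM with si-circRtn4 (log2 fold change 0.13, SE 0.13, limma, adjusted p = 0.593). Pcdha9 was at 3.11, 2.71 and 2.81 FPKM against 3.38, 2.72 and 3.57 FPKM (0.12, SE 0.11, limma, adjusted p = 0.555). In these genes and in Pcdha8, at 3.56, 2.61 and 2.74 FPKM against 3.33, 2.43 and 2.51 FPKM (limma, adjusted p = 0.766), the groups overlapped. Of 12 alpha genes whose mean reached 0.1 FPKM, limma-voom called 0 higher and 0 lower, with 0 in either direction at an unadjusted p under 0.05, and the median log2 fold change was -0.09. Pcdha2 was the alpha gene of this set whose groups did not overlap, at 0.556, 0.556 and 0.546 FPKM with si-NC and at 0.315, 0.407 and 0.462 FPKM with si-circRtn4 (-0.49, SE 0.26, limma-voom, adjusted p = 0.314). Summed RPM values were 103.3, 87.2 and 78.3 with si-NC and 104.0, 88.1 and 91.6 with si-circRtn4.

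In the gamma cluster no gene passed limma or limma-voom without the block, with 1 higher and 1 lower in limma-voom at an unadjusted p under 0.05 (Pcdhga4 and Pcdhgc3). Pcdhgb1 was the highest, at 3.48, 3.75 and 4.43 FPKM with si-NC and at 3.47, 3.44 and 4.10 FPKM with si-circRtn4 (log2 fold change -0.06, SE 0.11, limma, adjusted p = 0.763). Pcdhgc3, a C-type isoform, was at 2.57, 3.42 and 2.78 FPKM against 2.03, 2.44 and 2.13 FPKM. Its si-circRtn4 libraries all lay below the controls, and the log2 fold change of -0.29 (SE 0.12, limma, adjusted p = 0.175) passed only in limma-voom with the block (adjusted p = 0.0172). The other tested C-type genes, Pcdhgc4 and Pcdhgc5, had ratios of the means of 0.645 and 0.735, from 13 to 21 and 17 to 35 reads, and did not pass (limma-voom, adjusted p = 0.329 and 0.528). Pcdhga4 had the largest log2 fold change of the cluster (1.5, SE 0.54, limma-voom, adjusted p = 0.111), from 2 to 15 reads, and reached 0.1 FPKM through the si-circRtn4 libraries. Pcdhgb2, just under 1 FPKM, was at 0.869, 0.696 and 1.21 FPKM against 0.921, 0.855 and 1.0 FPKM, and the median over the 11 gamma genes tested was 0.00.

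Summed over the gamma cluster, RPM values were 51.3, 54.9 and 55.5 with si-NC and 47.9, 48.9 and 50.5 with si-circRtn4, a ratio of 0.911. These groups did not overlap on this scale, nor after rescaling to TPM without Gm23935, a gene that held 13.5% to 20.7% of the summed FPKM (ratio 0.916), but they overlapped as summed FPKM (0.902) and after rescaling to TPM with it (0.963). The same miR-24-3p site stands in the 3′ UTR of each gene of this cluster, and whether it bears on these values was not tested. Over all 92 genes the sums were 945.4, 823.7 and 791.9 RPM against 902.8, 822.1 and 868.0, a ratio of 1.01.

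**Figure D4:**
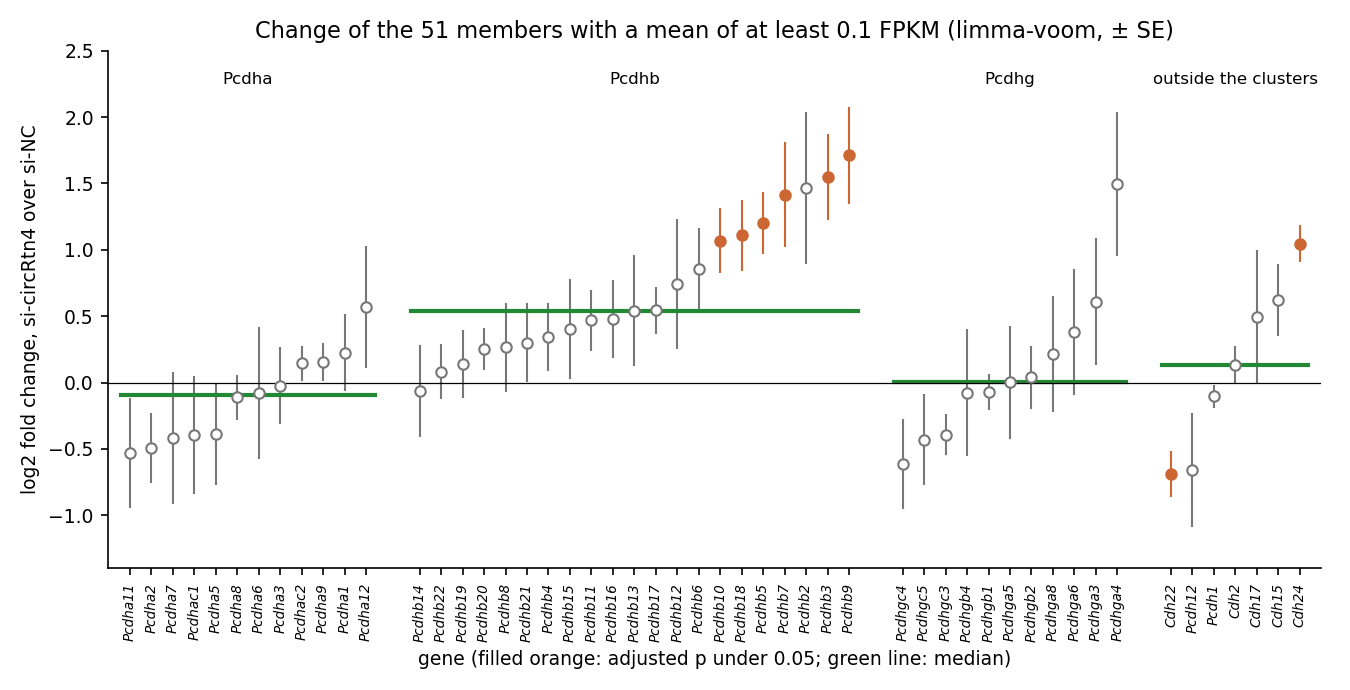
Log2 fold change (si-circRtn4 over si-NC, limma-voom, ± SE) of the 51 genes whose mean reached 0.1 FPKM, by cluster, with filled points for an adjusted p under 0.05 and a line at the median. The median lies at 0.54 in the beta cluster, at -0.09 in the alpha cluster and at 0.00 in the gamma cluster, and the filled points are 6 beta genes, Cdh24 and Cdh22.

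How far single isoforms can be told apart differs between the clusters. Of the gene lengths behind the FPKM, 5206 to 7535 bases in the alpha cluster, only 494 to 4606 are not shared with another gene on the same strand. In the gamma cluster 1570 to 4614 of 4664 to 7627 bases are unshared. Stretches of 50 bases that also occur in another gene made up 48.2% to 97.5% of the alpha genes (median 60.7%), 20.4% to 65.9% of the gamma genes (45.0%), 0% to 12.0% of the beta genes (4.45%) and 0% to 3.20% outside the clusters. Alpha and gamma genes thus have a smaller part of their own than beta genes. How reads on the constant exons were assigned is not given in the sources used here. Pcdha4, with 494 unshared bases, had 2 to 6 reads per library. Gm42416, Gm37013, Gm37388 and Gm38182, which share bases with the gamma genes, were listed at 0. If reads on shared bases were left out, FPKM over the full length is too low for alpha and gamma genes beside other genes, as are their sums. Pcdhga10, listed at 0, has 2613 unshared bases that all overlap the antisense gene Gm26672. The same gene overlaps 1381 bases of Pcdhga11, 771 of Pcdhgb7 and 422 of Pcdhga12, which were above 0 in all 6 libraries. Antisense genes also overlap 1559 bases of Pcdhgc3 and 1927 bases of Pcdhb12.

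The 3 clusters span 911.7 kb of chromosome 18 (GRCm38): alpha from 36930184 to 37187661, beta from 37264938 to 37524479 and gamma from 37661793 to 37841873. Within 500 kb of this span stand 30 other protein-coding genes. Of these 21 were tested, and limma and limma-voom each called 0, with a median log2 fold change of 0.0015 in limma. At an unadjusted p under 0.05, 4 were higher and 1 lower, beside 13.1% and 12.8% of all genes in limma. With the block 3 of them rose, Hars, Hbegf and Pfdn1, beside 9.29% of all genes. Taf7, a single-exon gene between the beta and gamma clusters that encodes a TFIID subunit, was at 5.14, 4.94 and 4.83 FPKM with si-NC and at 6.58, 6.11 and 5.12 FPKM with si-circRtn4 (log2 fold change 0.21, SE 0.10, limma, adjusted p = 0.218). Its groups overlapped.

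Genes that act with cadherins were taken from 7 lists of 112 genes, of which 74 were tested by limma. Of these 4 rose and 5 fell, beside 4.36% and 4.82% of all genes, and with the replicate block 8 rose and 8 fell, beside 9.29% and 9.75% of all genes. These counts lie near the shares of all genes. Among 9 catenins, which link cadherins to the cytoskeleton, Ctnnb1 (beta-catenin) fell. It was at 76.6, 87.0 and 83.6 FPKM with si-NC and at 56.2, 63.2 and 59.7 FPKM with si-circRtn4, with no overlap (log2 fold change -0.46, SE 0.08, limma, adjusted p = 0.017). The call was lost without si-NC replicate 2 or 3 or si-circRtn4 replicate 1 (adjusted p 0.0531 to 0.0735). Jup (plakoglobin), its close relative, was at 9.92, 6.67 and 6.81 FPKM against 11.2, 9.56 and 11.2 FPKM and passed with the block (limma, adjusted p = 0.118, and 0.0415 with the block). Ctnna1 (alpha-catenin) did not pass (limma, adjusted p = 0.361).

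Among the junction adaptors and nectins none fell, with 0 of 12 lower at an unadjusted p under 0.05 in limma or limma-voom, and Lima1 rose. Lima1, an actin-binding partner of the cadherin-catenin complex, was at 3.15, 2.47 and 2.51 FPKM with si-NC and at 5.92, 5.43 and 6.11 FPKM with si-circRtn4 (log2 fold change 0.88, SE 0.10, limma, adjusted p = 0.00357). Its groups did not overlap, and its call was kept without any 1 library. Vcl (vinculin) passed as higher with the block (limma, adjusted p = 0.157, and 0.0372 with the block). Of 8 other genes of the cadherin superfamily, Dchs1, a giant cadherin that binds Fat4, rose (log2 fold change 0.41, SE 0.08, limma, adjusted p = 0.0205), while the calsyntenins Clstn1 (-0.44, SE 0.09, adjusted p = 0.0246) and Clstn3 (-0.80, SE 0.09, adjusted p = 0.00352) fell. Clstn3 was at 14.3, 12.6 and 14.5 FPKM against 7.4, 6.87 and 8.22 FPKM. Its call was kept without any 1 library, while that of Clstn1 was lost in 4 of 6 such fits, all but those without si-NC replicate 1 or 3 (adjusted p 0.0598 to 0.0881), and that of Dchs1 in 5 of 6, all but that without si-NC replicate 1 (0.0611 to 0.0845).

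Of 15 effectors of protocadherin signalling, Fyn, a Src-family kinase, rose from 13.3, 12.3 and 14.8 FPKM to 25.6, 25.2 and 23.7 FPKM (log2 fold change 0.84, SE 0.08, limma, adjusted p = 0.00283). Wasf2, a subunit of the WAVE complex that drives actin branching, fell from 19.9, 19.5 and 20.4 FPKM to 14.6, 14.7 and 15.9 FPKM (-0.38, SE 0.07, limma, adjusted p = 0.018). In both the groups stood clear of each other. The call of Fyn was kept without any 1 library, and that of Wasf2 was lost without si-NC replicate 2 or 3 or si-circRtn4 replicate 1 or 2 (adjusted p 0.0589 to 0.0676). Abi2, another WAVE subunit, passed with the block (limma, adjusted p = 0.113, and 0.0429 with the block).

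Of 16 regulators of the protocadherin clusters, Rad21 fell and 0 rose. Rad21 is a subunit of cohesin, which with Ctcf brings cluster promoters to their enhancers. It was at 88.6, 109 and 116 FPKM with si-NC and at 49.1, 55.6 and 66.8 FPKM with si-circRtn4 (log2 fold change -0.86, SE 0.14, limma, adjusted p = 0.0121), with no overlap, and the call was lost without si-NC replicate 2 or si-circRtn4 replicate 2 (adjusted p 0.0517 and 0.0504). Ctcf itself did not pass (-0.15, SE 0.08, limma, adjusted p = 0.274), and neither did the cohesin subunits Smc1a, Smc3, Stag1 and Stag2 (limma, adjusted p = 0.957, 0.569, 0.17 and 0.99). Wiz and Dnmt1, the maintenance DNA methyltransferase, passed as lower with the block (limma, adjusted p = 0.0132 and 0.0455), and Wiz also in limma-voom (adjusted p = 0.0408). Whether Rad21 and the beta genes are linked was not tested.

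Among 10 genes of cadherin cleavage limma and limma-voom called 0 higher and 0 lower, with 0 higher and 1 lower at an unadjusted p under 0.05, and Ncstn, a gamma-secretase subunit, fell with the block (limma, adjusted p = 0.273, and 0.0307 with the block). Of 4 tested E-cadherin repressors and related factors 0 passed in limma, with 2 higher and 0 lower at an unadjusted p under 0.05. Zeb2 passed as higher with the block (limma, adjusted p = 0.0749, and 0.0377 with the block) and in limma-voom (adjusted p = 0.00984), at 2.08, 2.41 and 2.55 FPKM against 3.05, 3.22 and 3.64 FPKM.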

How the data were processed

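RNA sequencing of 6 libraries of N2a cells, 3 with si-NC and 3 with si-circRtn4, was analysed. The labels gave each library its group and replicate number. The authors deposited FPKM per gene with gene length and coordinates. Their processing notes name Bowtie 0.12.2 and the builds mm8 and mm9, with no role, and the counting tool is not given in the sources used here. The coordinates were those of GRCm38: of 54532 genes listed, 98.1% had the same start and end in GENCODE M21, as did 91 of the 92 cadherin and protocadherin genes. A further 6 columns hold other samples and were not used. Reads on genes numbered 13541198 to 15122063 per library.

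The values were fitted on the scale log2(FPKM + 1) by limma 3.58.1 (R 4.3.3, lmFit, eBayes with trend) over the 12749 genes of any biotype with a mean of at least 1 FPKM, with two-sided p-values adjusted by Benjamini-Hochberg over all of them. FPKM times gene length gave whole reads for all values (tolerance 0.01), and these were tested by limma-voom with TMM factors computed for this purpose. Single genes were also compared by exact permutation tests, which give 0.1 at the least. Deviations from the group means correlated at 0.19 to 0.331 between libraries of the same replicate number and at -0.228 to 0.00913 otherwise. Within a group these deviations sum to 0 for each gene, so the values for unlike numbers are bound to those for the same number. They are not separate evidence of pairing. The numbers were treated as pairs in the fits with a block. Neither the labels nor the paper say what the number marks.

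The fits were tested on simulated reads for si-circRtn4 against si-NC, with genes changed by a fold of 2. All genes were given the same dispersion (spread between libraries beyond counting noise) and no effect of the replicate number. The rates hold for this setting and may differ in the data, where libraries of the same number deviated together. With a mean of at least 1 FPKM, limma recovered 91.8% of 194 changed genes among 12796 (4.81% of calls false). With a mean of at least 0.1 FPKM, limma-voom recovered 61.1% of 193 among 19976 (1.67% of calls false), and limma 37.3% (15.3% false).

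The 92 genes, the 7 lists of partner genes and the 5 lists of cell type markers were chosen with earlier results of these data known. Named are the genes that passed, the 15 highest, the lowest p of each family, the 2 nearest the filter on each side, and those that passed only with the block. The genes described because limma-voom called them, and others of few reads, were chosen after their values were seen. Sites were searched in 3′ UTRs of GENCODE M21, taking the longest of a gene. Alternatives were another pseudocount, other filters, TPM with and without Gm23935, quantile normalization, limma-voom, the replicate block and leaving out each library. Python 3.11.15, pandas 2.3.3 and matplotlib 3.10.9 were used. Values of some genes of the lists are not reported here.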

Additional observations from a re-analysis of the deposited data

How the results depend on the processing

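Of the 17 cadherin and protocadherin genes tested, limma on log2(FPKM + 1) called 3 higher and 0 lower, with 556 genes of the whole table higher and 615 lower and 4 partner genes higher and 5 lower. Of the 3, Pcdhb5 and Pcdhb10 passed the filter of 1 FPKM only through the si-circRtn4 libraries, also in the alternatives that keep this filter. In limma, a mean of at least 0.1 FPKM gave 5 of 51 cadherin and protocadherin genes higher and 0 lower. Beside them, 390 of the 20064 genes tested were higher and 434 lower. In this fit 15.3% of calls on simulated reads were false, a rate that holds for the simulated spread and may differ in the data. Testing every gene above 0 gave 1 higher, beside 210 genes of the table higher and 261 lower and 2 and 3 partner genes. Rescaling to TPM, for a table in which Gm23935 held 13.5% to 20.7% of the summed FPKM, moved the median of all genes to 0.08 and gave 977 genes higher and 400 lower in the table, with 3 cadherin and protocadherin genes higher. Limma-voom gave 3 higher and 1 lower (Cdh22), beside 836 genes of the table higher and 813 lower. The replicate block gave 4 higher and 1 lower, 1185 genes higher and 1243 lower in the table, and 8 and 8 partner genes.

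Limma-voom with a mean of at least 0.1 FPKM, chosen after the data were seen, gave 7 higher and 1 lower. It gave 894 genes of the table higher and 820 lower, and 7 and 8 partner genes. With the block it gave 11 and 2, 2088 and 1925 genes of the table, and 18 and 15 partner genes. In limma, the calls of named genes that the block changed are given beside their results. In limma-voom its effect on partner genes is given as these counts alone.

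With each library left out, limma called 1 higher (Cdh24) and 0 lower in each fit, 163 to 407 genes higher and 217 to 419 lower in the table, and 2 to 4 and 1 to 6 partner genes. Limma-voom with a mean of at least 0.1 FPKM called 2 to 6 higher, with 2 (Cdh24 and Pcdhb5) without si-NC replicate 2 or 3, and 0 to 1 lower. It called 314 to 649 genes higher and 345 to 653 lower in the table, and 3 to 6 and 3 to 7 partner genes. Both tests have fewer libraries in these fits. No log2 fold change of a named gene that passed a test changed sign under an alternative that was run. Genes with few reads limit what can be seen: Cdh3, Cdh4, Cdh5 and Cdh6, with at most 3 reads in each library, were not tested.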
